A study of Rattus norvegicus with 18 samples.

Results

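Matricellular proteins are secreted proteins that sit in the extracellular matrix and modulate how cells contact it, and fibronectin is the adhesive scaffold that several of them bind. The 10 genes described here were Sparc, Sparcl1, Postn, Tnc, Fn1, Mgp, Ccn1, Ccn2, Thbs1 and Thbs2. They were taken by gene symbol in the platform annotation, with every probe set of a gene. Of the 10, 9 genes had a probe set, and Sparc had 2, so that 10 of 31042 tested probe sets belonged to them. No probe set carried the symbol Thbs1, which was not analysed here.

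RNA from rat spinal cord material had been measured on 18 single-channel Affymetrix arrays, 6 in each group. The BMP group had been given 10 ng/mL of bone morphogenetic protein and the CNTF group 10 ng/mL of ciliary neurotrophic factor, each entered in the labels with 4 days. The labels of the controls name neither an agent nor a time beyond an entry that they do not explain, so any difference in time from the controls cannot be told apart from the addition. The labels do not name the BMP family member, the cell type, the culture, the strain or the age and leave unsaid whether the arrays of a group are separate cultures or animals. A p-value here therefore reflects only how these arrays scatter, which may be technical scatter. Each group has titles numbered 1 to 6, and arrays are named by group and number.

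Levels are log2(intensity + 116.655), where the constant is the 20th percentile of the deposited values. On this scale the median of the table lies at 9.75, and differences of dim genes are understated. Group values are mean ± SD of 6 arrays, and differences carry limma's moderated standard error after ±. A gene was called at a Benjamini-Hochberg adjusted p under 0.05 over all probe sets, in a model of group means. Same-numbered arrays deviated together, so the fit with the number as a block is given where it changed a call. Of the marker lists, all 10 microglia and macrophage markers and all 10 measured endothelial markers had group means below the table median in every group. Of 11 measured astrocyte markers 10 lay above it in each group.

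As background, BMPs are secreted ligands that signal through SMAD proteins, and CNTF is a cytokine whose receptor contains gp130 and activates STAT3. In the nervous system, astrocytes release Sparc, the Sparc-like protein hevin (Sparcl1) and thrombospondins, proteins known for opposing or promoting synapse formation. Tenascin-C (Tnc) and fibronectin are matrix proteins known to increase after injury. Ccn1 and Ccn2 are integrin-binding proteins and well known targets of the co-activator YAP and, for Ccn2, of TGF-beta.

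On group means the 2 additions shared 1 called rise, that of Fn1. With the title number as a block they shared 3, those of Fn1, Sparcl1 and Mgp. The share of all probe sets called higher with both additions was not computed, so these counts have no background to be read against. Against control, BMP raised Sparc, Postn, Fn1 and Ccn2, 4 of the 9 measured genes, and lowered 0. Over all probe sets 3.44% were called higher and 2.57% lower in that comparison. CNTF raised Fn1 and Mgp, 2 of the 9, and lowered 0, beside 1.58% called higher and 0.738% called lower over all probe sets. Set directly against CNTF, BMP had higher Sparc, Postn and Tnc, 3 of the 9, and 0 lower, beside 3.24% higher and 2.99% lower over all. At limma's unadjusted threshold of 0.05, 0 of the 9 were lower in BMP against control and in BMP against CNTF, and 1, Tnc, was lower in CNTF against control. The share over all probe sets at the unadjusted threshold was not computed.

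With the number as a block, 6 of the 9 genes rose with BMP, Sparcl1 and Mgp being added, against 9.1% called higher and 7.58% called lower over all probe sets. In the CNTF comparison the block added a rise of Sparcl1 and a fall of Tnc, giving 3 higher and 1 lower, against 4.19% and 3.38%. BMP against CNTF stayed at 3 higher and 0 lower, against 8.17% and 6.93%. The median difference of the 9 genes was 1.22 for BMP against control, 0.53 for CNTF against control and 0.40 for BMP against CNTF. The medians over all probe sets were 0.01, -0.01 and 0.01. When every array was scaled to the same median, the share of higher among all calls was 34.6% for BMP against control and 39.5% for BMP against CNTF, beside 57.2% and 52.0% with the deposited scaling. The genes called among the 9 were as many in each contrast under that scaling. The comparisons against control share the same 6 control arrays, and BMP against CNTF shares the treated arrays.

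**Figure D1:**
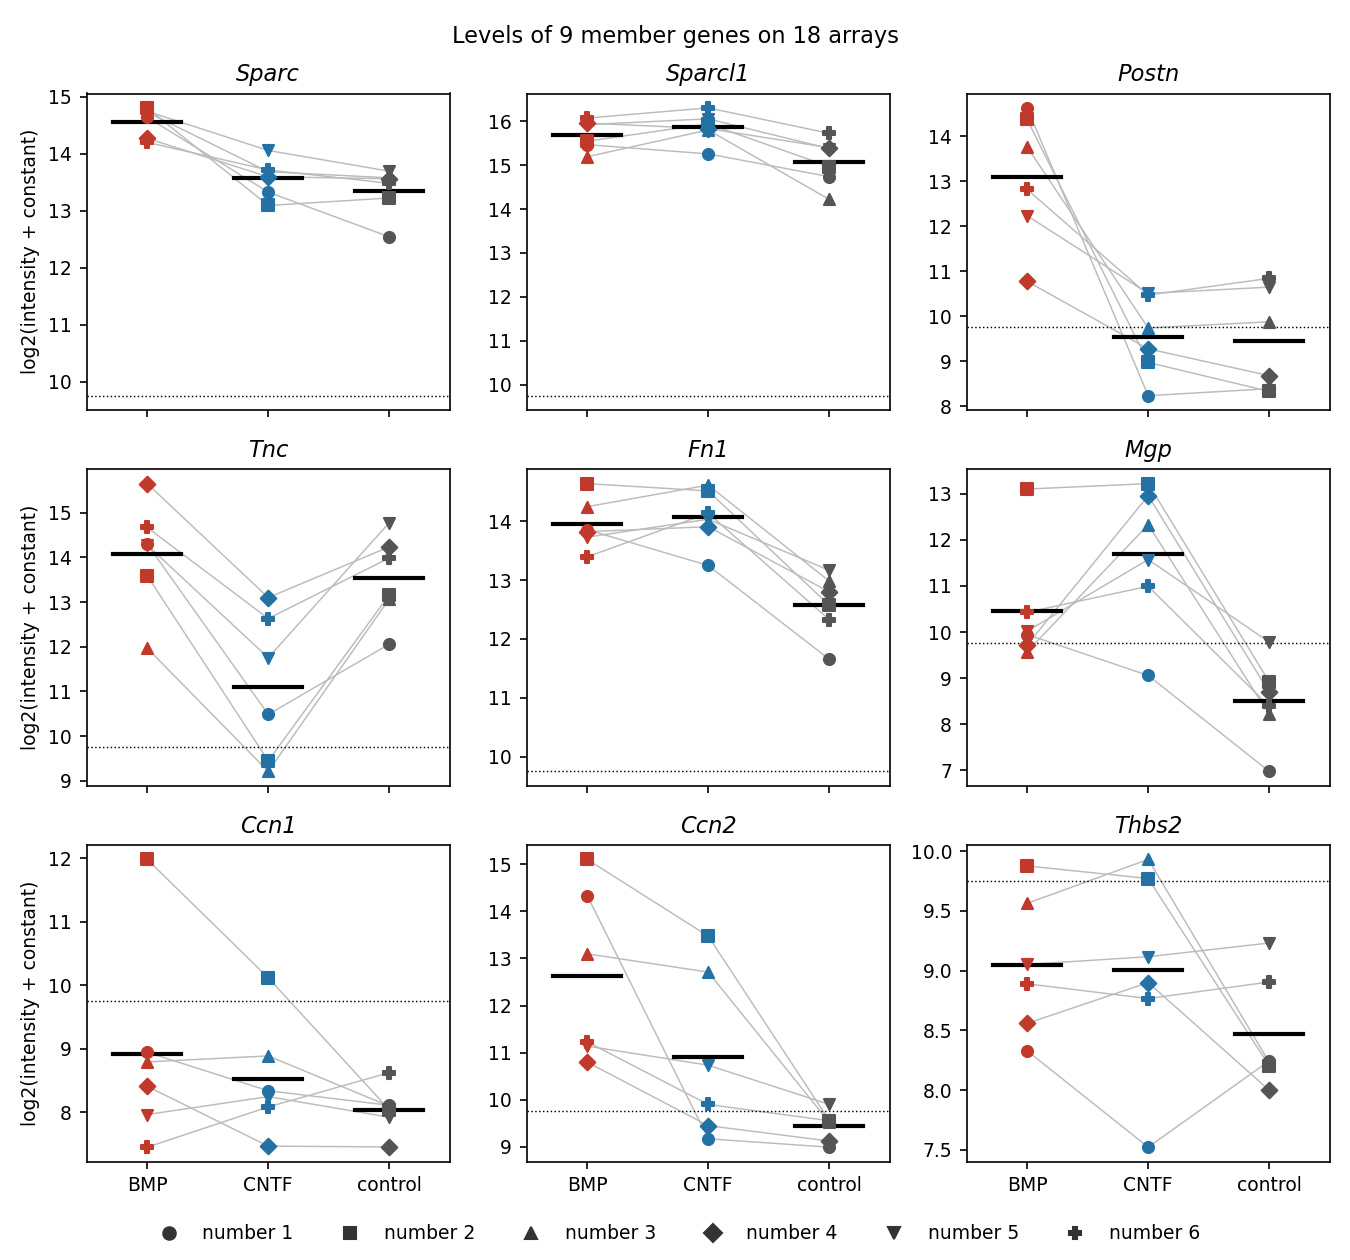
Levels of the 9 measured genes on the 18 arrays, as log2(intensity + constant), by group. Grey lines join arrays of 1 title number, marker shapes stand for the numbers, black bars are means of 6 arrays and the dotted line is the table median of 9.75. Postn and Ccn2 stand highest in the BMP group, Tnc lowest in the CNTF group, and Fn1 above the controls in both.

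**Figure D2:**
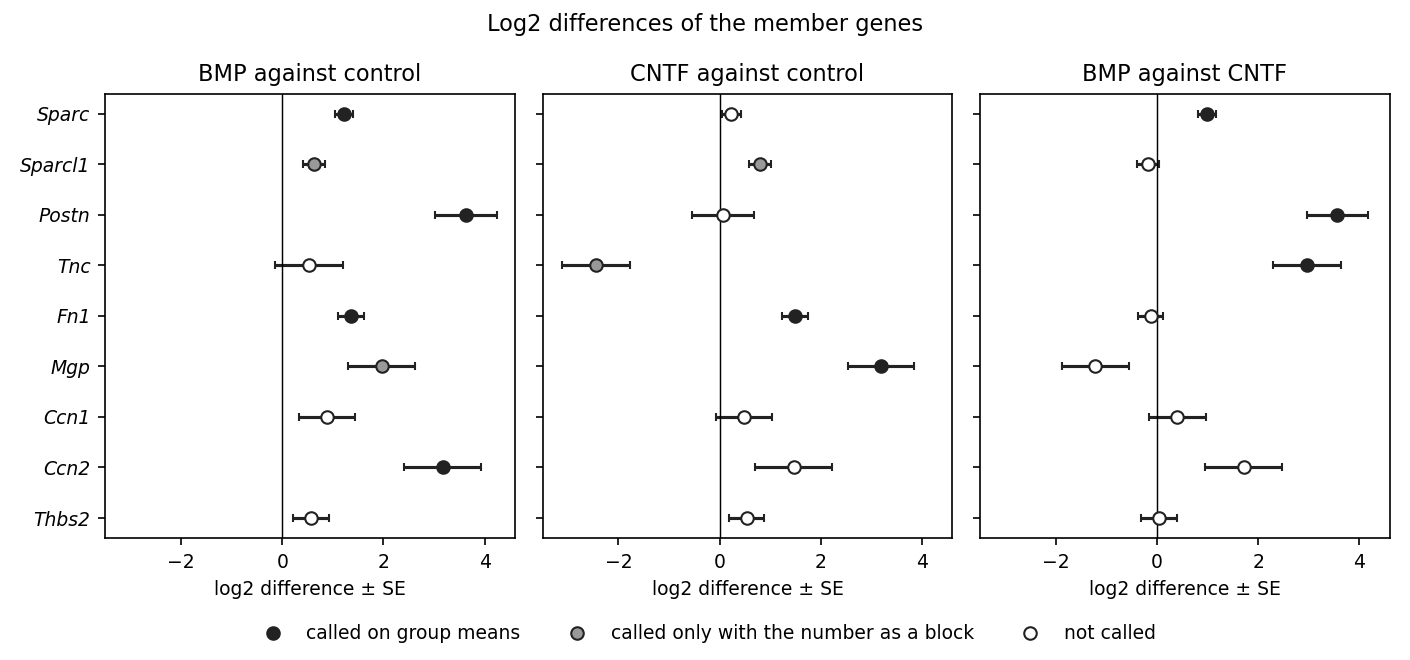
Log2 differences of the 9 genes in the 3 comparisons with limma's moderated standard error. Black points were called on group means, grey points only with the number as a block, and open points in neither fit.

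Fn1 (probe set 1370234_at) encodes fibronectin, which cells bind through integrins and syndecans. It was at 13.95 ± 0.43 with BMP, at 14.07 ± 0.49 with CNTF and at 12.58 ± 0.54 in controls. The lowest, median and highest arrays were 13.39, 13.84 and 14.63 with BMP, 13.25, 14.08 and 14.61 with CNTF, and 11.65, 12.68 and 13.16 in controls. Every treated array therefore lay above every control array, while the BMP and CNTF arrays overlapped. The rise was 1.36 ± 0.25 with BMP (2.57-fold, limma adjusted p = 0.00304) and 1.49 ± 0.25 with CNTF (2.81-fold, limma adjusted p = 0.00218). It was seen in 6 of 6 same-numbered pairs for each addition. BMP and CNTF differed by -0.13 ± 0.25 (limma adjusted p = 0.885), with CNTF the higher in 4 of 6 pairs.

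Sparc (probe sets 1367562_at and 1367563_at) encodes a collagen-binding matricellular glycoprotein, also called osteonectin. The first probe set was at 14.57 ± 0.26 with BMP, 13.58 ± 0.33 with CNTF and 13.35 ± 0.42 in controls. The 6 BMP arrays, 14.20 to 14.81, lay above all CNTF arrays (13.09 to 14.06) and all control arrays (12.54 to 13.70). The CNTF and control arrays overlapped. BMP against control gave 1.22 ± 0.18 (2.33-fold, limma adjusted p = 0.00082) and BMP against CNTF 0.99 ± 0.18 (limma adjusted p = 0.00245), each higher in 6 of 6 pairs. CNTF against control gave 0.23 ± 0.18 and was not called (limma adjusted p = 0.753). The other Sparc probe set gave 1.08, 0.90 and 0.18 for the same 3 contrasts, with the same calls.

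Postn (1373911_at) encodes periostin, a matricellular protein of mesenchymal and collagen-rich tissues. Its levels with BMP were 14.63, 14.37, 13.76, 10.77, 12.23 and 12.82 in arrays 1 to 6. With CNTF they were 8.23, 8.97, 9.74, 9.27, 10.50 and 10.47, and in controls 8.39, 8.33, 9.87, 8.68, 10.64 and 10.84. BMP arrays 1 to 3 were the brightest although control arrays 1 and 2 were the dimmest controls. BMP array 4 lay below control array 6, so that these groups overlapped at that point, and the BMP and CNTF arrays did not overlap. BMP against CNTF gave 3.56 ± 0.61 (11.8-fold, limma adjusted p = 0.00132) and BMP against control 3.64 ± 0.61 (limma adjusted p = 0.00145). Leaving out all arrays of 1 number kept the BMP difference from control between 3.12 and 4.05. CNTF against control gave 0.07 ± 0.61 (limma adjusted p = 0.988), higher in 2 of 6 pairs and of either sign when single arrays were left out.

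Ccn2 (1367631_at) encodes connective tissue growth factor, a secreted protein that binds integrins and growth factors. Its levels with BMP were 14.33, 15.10, 13.10, 10.80, 11.14 and 11.23 in arrays 1 to 6. With CNTF they were 9.17, 13.47, 12.71, 9.45, 10.73 and 9.90, against 8.995, 9.56, 9.52, 9.13, 9.90 and 9.56 in controls. The controls were tightly grouped (SD 0.33) and the treated groups were not (SD 1.83 with BMP and 1.79 with CNTF). All BMP arrays lay above all controls, and CNTF arrays 2 and 3 stood clear of the other 4. The rise with BMP was 3.17 ± 0.76 (9.01-fold, limma adjusted p = 0.0161). It was not called when all arrays of number 1 (2.74, limma adjusted p = 0.0705) or of number 3 (3.09, limma adjusted p = 0.0603) were left out. CNTF against control gave 1.46 ± 0.76 (limma adjusted p = 0.503), although each CNTF array was above its same-numbered control, and was 0.95 without CNTF array 2. BMP against CNTF gave 1.71 ± 0.76 (limma adjusted p = 0.239), higher in 6 of 6 pairs, and was 1.02 without number 1.

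Among the genes that BMP raised, Sparc, Postn and Ccn2 have an entry in the RefSeq promoter table (build GRCr8), and the 250 bases before each annotated start are shown because these 3 genes rose together. They run 5′ to 3′ on the gene's strand, and capitals mark matches to the motifs searched.
Sparc (chr10:40038817-40039066, minus strand): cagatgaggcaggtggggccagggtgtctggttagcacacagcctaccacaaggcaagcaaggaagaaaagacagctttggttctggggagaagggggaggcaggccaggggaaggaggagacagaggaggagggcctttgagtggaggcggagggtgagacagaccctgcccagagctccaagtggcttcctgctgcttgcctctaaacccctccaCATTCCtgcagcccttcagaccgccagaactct
Postn (chr2:140677811-140678060, plus strand): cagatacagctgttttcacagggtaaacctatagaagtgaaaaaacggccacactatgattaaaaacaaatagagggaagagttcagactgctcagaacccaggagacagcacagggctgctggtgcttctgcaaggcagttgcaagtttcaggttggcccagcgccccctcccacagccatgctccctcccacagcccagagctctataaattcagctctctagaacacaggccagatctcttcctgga
Ccn2 (chr1:22624615-22624864, minus strand): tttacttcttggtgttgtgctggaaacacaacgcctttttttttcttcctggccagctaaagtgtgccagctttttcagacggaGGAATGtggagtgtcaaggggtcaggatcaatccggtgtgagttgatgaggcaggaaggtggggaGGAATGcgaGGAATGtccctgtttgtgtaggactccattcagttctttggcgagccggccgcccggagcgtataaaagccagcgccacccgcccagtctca

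The motifs were TTCNNNGAA (named for STAT), GGCGCC (BMP-SMAD), GGAATG (TEAD) and TGANTCA (AP-1), on both strands, in windows of 300 bases that reach 50 bases past the start. In the stretches shown, only GGAATG or its reverse complement matched, so no matches overlap. Ccn2 held GGAATG 3 times, with its first base 166, 101 and 92 bases upstream of the start. Sparc held it once, 33 bases upstream on the opposite strand, and Postn held none of the 4 motifs. Of the 10 genes, 7 had an entry, and GGAATG occurred in 4 of them (Sparc, Ccn1, Ccn2 and Thbs1), against 14.2% of 33469 promoters in the table. GGCGCC occurred in Ccn1 and TTCNNNGAA in Thbs1, 1 of 7 each, against 11.02% and 8.87%. TGANTCA was found in 0 of 7, against 7.33%. A match describes the letters in the window and is not evidence of binding.

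Mgp (1367568_a_at) encodes matrix Gla protein, an inhibitor of calcification that is known to bind BMPs. Its levels with CNTF were 9.06, 13.22, 12.33, 12.96, 11.57 and 10.99 in arrays 1 to 6, against 6.98, 8.92, 8.21, 8.70, 9.78 and 8.39 in controls. With BMP they were 9.95, 13.10, 9.58, 9.72, 10.02 and 10.43. The CNTF arrays lay above their own controls throughout, with array 1 below control array 5, and 5 of the 6 control arrays lay under the table median. The rise with CNTF was 3.19 ± 0.66 (9.13-fold, limma adjusted p = 0.0106). It was not called without number 3 (3.01, limma adjusted p = 0.0717) or number 4 (2.98, limma adjusted p = 0.0538). BMP against control gave 1.97 ± 0.66 (limma adjusted p = 0.0877), higher in 6 of 6 pairs. It was called with the number as a block (limma adjusted p = 0.00984) and when CNTF array 1 was left out of the shared spread (limma adjusted p = 0.0408). BMP against CNTF gave -1.22 ± 0.66 and was called in neither fit (limma adjusted p = 0.369).

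Tnc (1373401_at) encodes tenascin-C, a large oligomeric glycoprotein of glial and injury-related matrix. It was at 14.07 ± 1.23 with BMP, 11.11 ± 1.64 with CNTF and 13.55 ± 0.98 in controls. With CNTF the lowest, median and highest arrays were 9.21, 11.12 and 13.10, against 12.06, 13.57 and 14.77 in controls and 11.97, 14.28 and 15.65 with BMP. CNTF was the lowest of the 3 arrays with its number in 6 of 6 cases, while the groups overlapped. CNTF against control gave -2.44 ± 0.67, 5.43-fold lower, and missed the threshold on group means (limma adjusted p = 0.0647), but passed it with the block (limma adjusted p = 0.000796). It was also called without control array 1 (-2.74, 0.0476), CNTF array 4 (-2.84, 0.0269), CNTF array 6 (-2.75, 0.048), BMP array 3 (-2.44, 0.0422) or number 4 (-2.70, 0.0468), limma adjusted p after each difference. BMP against CNTF gave 2.97 ± 0.67 (7.82-fold, limma adjusted p = 0.0102), and it was not called without number 2 (2.73, limma adjusted p = 0.0536). BMP against control gave 0.53 ± 0.67 (limma adjusted p = 0.762), higher in 4 of 6 pairs. It was 0.18 without number 1 and 0.95 without BMP array 3.

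Sparcl1 (1386865_at) encodes hevin, the astrocyte relative of Sparc. It was at 15.69 ± 0.34 with BMP, 15.86 ± 0.35 with CNTF and 15.07 ± 0.54 in controls. It was higher than the same-numbered control in 6 of 6 pairs with each addition, by 0.35 to 0.97 with BMP and by 0.43 to 1.58 with CNTF, although the groups overlapped. On group means neither difference was called (0.62 ± 0.22, limma adjusted p = 0.106, and 0.79 ± 0.22, limma adjusted p = 0.0662). Both were called with the block (limma adjusted p = 0.00158 and 0.000518). The CNTF difference was also called under quantile normalization (0.83, limma adjusted p = 0.0373), without CNTF array 1 (0.92, limma adjusted p = 0.0263) and without control array 6 (0.92, limma adjusted p = 0.0268). BMP against CNTF gave -0.17 ± 0.22 (limma adjusted p = 0.792).

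Ccn1 and Thbs2 were called in no contrast, on group means or with the block. Ccn1 (1368290_at), the CCN relative also known as Cyr61, was at 8.93 ± 1.6 with BMP, 8.52 ± 0.91 with CNTF and 8.04 ± 0.38 in controls. Only 1 BMP array (array 2, 11.98), 1 CNTF array (array 2, 10.12) and 0 control arrays exceeded the table median. Its differences were 0.88 ± 0.56 for BMP (limma adjusted p = 0.45) and 0.48 ± 0.56 for CNTF (limma adjusted p = 0.874). Thbs2 (1385751_at), a thrombospondin, was at 9.04 ± 0.59 with BMP, 9.001 ± 0.86 with CNTF and 8.47 ± 0.48 in controls. It exceeded the table median on 1 BMP array, 2 CNTF arrays and 0 control arrays. Its differences were 0.58 ± 0.35 for BMP (limma adjusted p = 0.43) and 0.53 ± 0.35 for CNTF (limma adjusted p = 0.667), and the highest CNTF arrays were again numbers 2 and 3 (9.77 and 9.93).

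**Figure D3:**
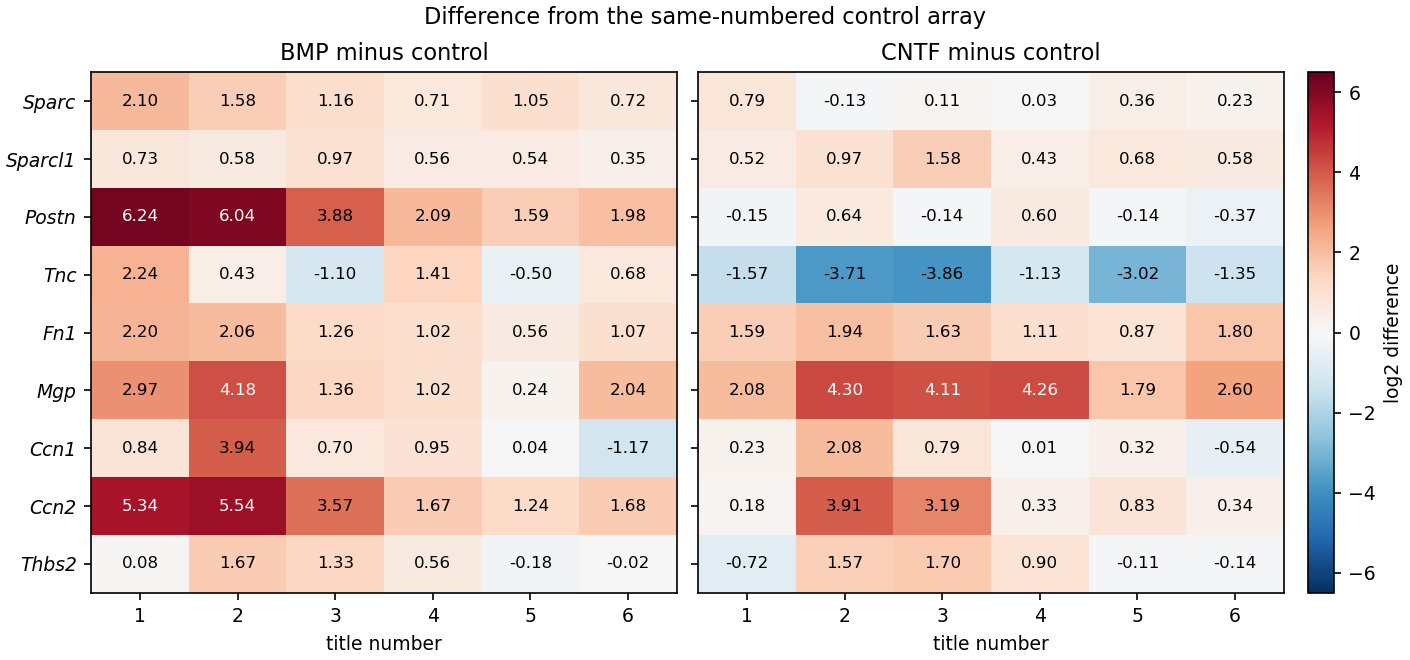
Log2 difference of each treated array from the control array of the same title number, for the 9 genes, with red for higher and blue for lower. With BMP the differences of Postn (1.59 to 6.24) and Ccn2 (1.24 to 5.54) were larger in numbers 1 to 3 than in numbers 4 to 6, and with CNTF Ccn2 was 3.91 and 3.19 in numbers 2 and 3 and at most 0.83 in the others.

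The difference from the same-numbered control varied between numbers more for some genes than for others. For Sparcl1 the BMP differences of the 6 pairs ranged from 0.35 to 0.97 and for Sparc from 0.71 to 2.10. For Mgp they ranged from 0.24 to 4.18 and for Ccn1, called in no contrast, from -1.17 to 3.94. Ccn1 exceeded the table median on 0 control arrays and 1 BMP array, and Mgp on 1 and 4. Sparc and Sparcl1 exceeded it on all arrays. Tnc exceeded it on all control and BMP arrays, and its BMP differences ranged from -1.10 to 2.24. Postn (1.59 to 6.24) and Ccn2 (1.24 to 5.54) exceeded it on all 6 BMP arrays, and on 3 and 1 control arrays. Fn1 (0.56 to 2.20) exceeded it on all arrays, and Thbs2 (-0.18 to 1.67) on 0 control arrays and 1 BMP array. The part of low intensity in the wider ranges was not tested. With CNTF, numbers 2 and 3 held the 2 highest levels of Fn1, Ccn1, Ccn2 and Thbs2, 4 of the 9 genes, and the 2 lowest of Tnc. With BMP they held the 2 highest levels of Fn1 and Thbs2, 2 of the 9, and the 2 lowest of Tnc, against 0 of the 9 for the highest and for the lowest in controls. These numbers were picked after the values were seen, and the share over all probe sets was not computed. The labels do not say what a number stands for.

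In bulk samples like these, fewer cells of a type and less RNA per cell cannot be told apart. Several of the genes described are also made by fibroblasts and smooth muscle cells, and markers of these cells moved with BMP. Of 17 such markers, 3 rose and 0 fell with BMP on group means (8 and 0 with the block), with a median difference of 0.96. Col1a2, a chain of fibrillar collagen, rose by 2.61 ± 0.50 (limma adjusted p = 0.00349), Col6a2, a chain of microfibrillar collagen, by 1.51 ± 0.32 (limma adjusted p = 0.00677), and S100a4, a calcium-binding protein of motile cells, by 1.28 ± 0.31 (limma adjusted p = 0.0173). The S100a4 rise was not called without number 2 (1.26, limma adjusted p = 0.0686) or number 4 (1.18, limma adjusted p = 0.0725). With CNTF 1 marker rose (S100a4, 2.01 ± 0.31, limma adjusted p = 0.00086) and 0 fell. Over all probe sets 3.44% were called higher and 2.57% lower with BMP on group means (9.1% and 7.58% with the block). With CNTF these shares were 1.58% and 0.738% (4.19% and 3.38% with the block). The summed intensity of the 17 markers was 20762 to 91639 on BMP arrays and 8724 to 31978 on CNTF arrays, against 8094 to 18670 in controls. Of the list, 8 markers had a mean under the table median with BMP, 9 with CNTF and 10 in controls. Dcn, Lum, Pdgfrb, Cnn1, Des, Rgs5 and Twist1 were under it in every group, and Myh11 only with BMP. BMP against CNTF had Col1a2 higher by 2.14 ± 0.50 (limma adjusted p = 0.012) and Col6a2 by 1.14 ± 0.32 (limma adjusted p = 0.0344), and the Col6a2 call was lost in 11 of the alternatives run. Neuron markers moved with BMP too. Of 12, 3 rose and 1 fell (6 and 1 with the block), with a median of 0.56. Their summed intensity was 66018 to 110618 on BMP arrays, against 67881 to 80762 in controls. Of 11 astrocyte markers, 1 rose with BMP (Aqp4) and 1 with CNTF (Gfap), and 0 fell with either. With the block 2 rose and 1 fell in each comparison. The median difference of these markers was -0.03 with BMP and -0.03 with CNTF. Their summed intensity was 345638 to 487223 on BMP arrays and 427504 to 539070 on CNTF arrays, against 345042 to 466891 in controls. The part of these cells in the BMP differences of Postn, Sparc, Fn1 and Ccn2, or in the CNTF differences of Fn1 and Mgp, was not tested.

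**Figure D4:**
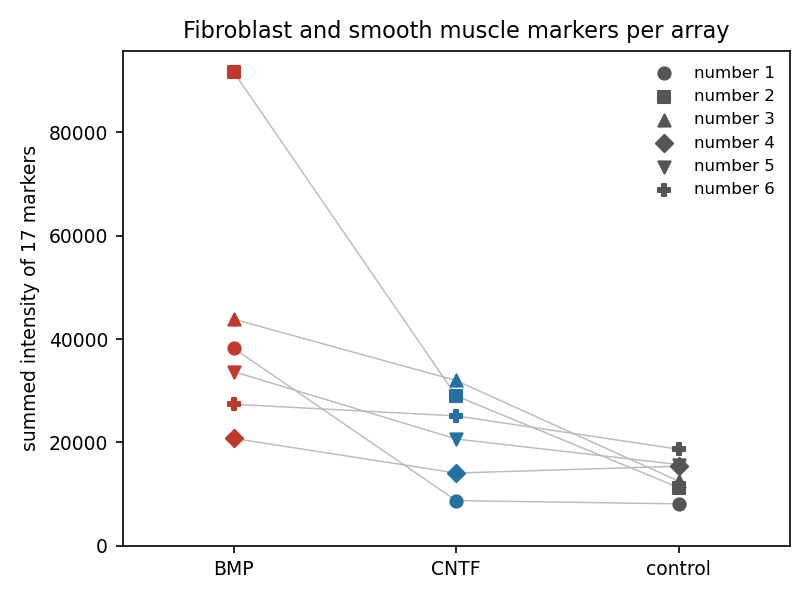
Summed intensity of 17 fibroblast and smooth muscle markers on each array, with lines joining arrays of 1 title number. The 6 BMP arrays sit between 20762 and 91639, above all control arrays, and BMP array 2 is the highest.

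Other genes of the extracellular matrix with related roles were taken as a list of 30, of which 28 were measured. With BMP 6 rose and 1 fell (10 and 1 with the block), and the median difference of the list was 0.51. Over all probe sets 3.44% were called higher and 2.57% lower with BMP (9.1% and 7.58% with the block). Spock1, a testican proteoglycan of the Sparc family, rose by 1.76 ± 0.27 (limma adjusted p = 0.00104), and Tgfbi, a secreted adhesion protein, by 1.67 ± 0.34 (limma adjusted p = 0.0052). Fstl1, a further Sparc relative, rose by 1.25 ± 0.27 (limma adjusted p = 0.0075), a call that was not made without number 2 (0.94, limma adjusted p = 0.0504). Tnr, the tenascin known from oligodendrocytes, fell by 2.33 ± 0.41 (limma adjusted p = 0.00202). It was at 10.88 ± 0.98 with BMP, against 13.20 ± 0.74 in controls. Beside it, 8 of 11 oligodendrocyte lineage markers fell with BMP, and their summed intensity was 23996 to 153835 on BMP arrays, against 154608 to 283162 in controls. The part of those cells in the Tnr difference was not tested.

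Over all probe sets 1.58% were called higher and 0.738% lower with CNTF (4.19% and 3.38% with the block). With CNTF 3 of the 28 rose and 0 fell (5 and 1 with the block), with a median of 0.03. They were Spp1, which encodes osteopontin (7.02 ± 0.47, limma adjusted p = 2.4e-08), Thbs4, a thrombospondin (2.67 ± 0.48, limma adjusted p = 0.0032), and Efemp2, the elastic fibre protein fibulin-4 (1.20 ± 0.19, limma adjusted p = 0.000982). Thbs4 was at 11.46 ± 0.99 with CNTF, against 8.78 ± 0.93 in controls. Its difference with BMP was 1.15 and was not called (limma adjusted p = 0.183). The other two rose with BMP as well, Spp1 by 1.998 (limma adjusted p = 0.0145) and Efemp2 by 0.80 (limma adjusted p = 0.0142), each in 6 of 6 pairs. Set against CNTF, BMP had 4 of the 28 higher and 2 lower (8 and 3 with the block). Over all probe sets the shares were 3.24% and 2.99% (8.17% and 6.93% with the block). Eln, which encodes elastin, was higher by 3.41 ± 0.52 (limma adjusted p = 0.000476) and Spock1 by 2.02 ± 0.27 (limma adjusted p = 0.000169). Spp1 was lower by 5.02 (-5.02 ± 0.47, limma adjusted p = 3.35e-06) and Tnr by 2.12 (-2.12 ± 0.41, limma adjusted p = 0.00316).

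**Figure D5:**
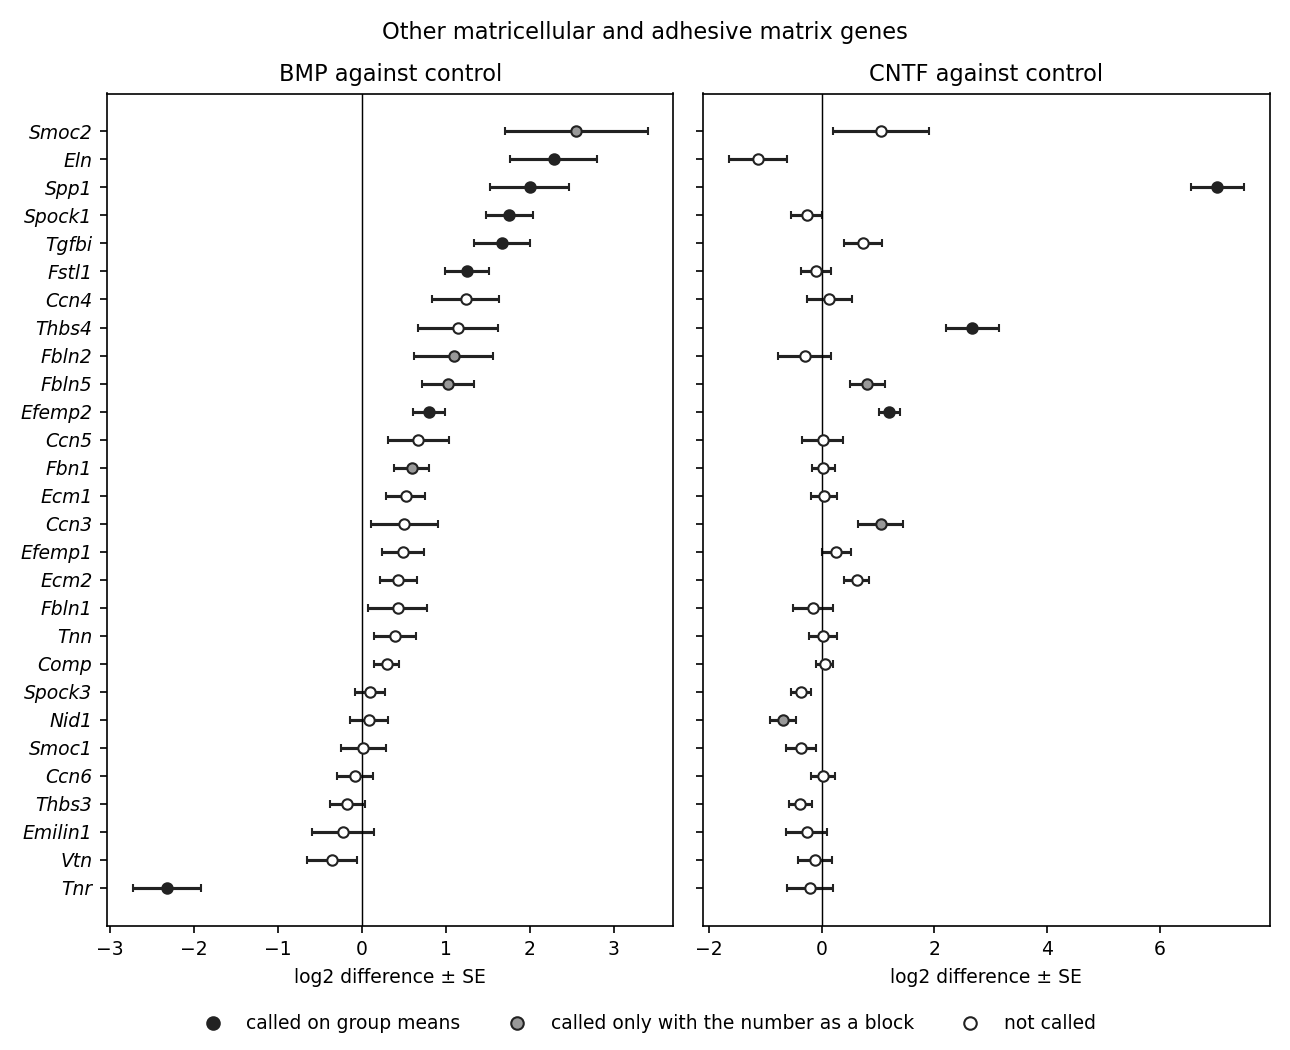
Log2 differences of the 28 measured genes of the wider matrix list against control, with limma's moderated standard error, sorted by the BMP difference. Filled black points were called on group means, grey points only with the number as a block. Tnr is the 1 called fall with BMP, and Spp1 and Thbs4 have the largest rises with CNTF.

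Of 18 measured receptors for these proteins, 2 rose with BMP, beside 3.44% called higher over all probe sets. Itga3 and Itgb5, integrin subunits for laminin and for vitronectin, were higher by 1.29 ± 0.21 and 1.37 ± 0.24 (limma adjusted p = 0.00127 and 0.00186). With CNTF the 1 called receptor was Sdc4, a syndecan that binds fibronectin, at 13.65 ± 0.54 against 11.86 ± 0.63 in controls (1.79 ± 0.26, limma adjusted p = 0.000449). BMP was lower than CNTF for Sdc4 (-1.43 ± 0.26, limma adjusted p = 0.00194) and higher for Itgb5 (1.40 ± 0.24, limma adjusted p = 0.00129). It was also higher for Itga3 (0.81 ± 0.21, limma adjusted p = 0.0254). That call was lost in 8 of the alternatives run, among them without number 1 (0.73, limma adjusted p = 0.115) and without number 6 (0.62, limma adjusted p = 0.056). On group means limma called 0 of the 18 lower in either comparison against control, and 1 with BMP and 0 with CNTF were lower at its unadjusted threshold of 0.05. The share over all probe sets at the unadjusted threshold was not computed. With the block 3 rose and 1 fell with BMP, adding a rise of Cacna2d1, a calcium channel subunit that binds thrombospondins (1.19, limma adjusted p = 0.00456), and a fall of the endocytic receptor Lrp1 (-0.43, limma adjusted p = 0.00105). These 2 were chosen for naming after their values were seen. Over all probe sets the block fit called 9.1% higher and 7.58% lower with BMP. On group means 2.57% were called lower with BMP, and 1.58% higher and 0.738% lower with CNTF.

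Genes linked in other work to control of Ccn1, Ccn2 and Postn were counted in the same way. Over all probe sets 3.44% were called higher and 2.57% lower with BMP on group means (9.1% and 7.58% with the block). With CNTF the shares were 1.58% and 0.738% (4.19% and 3.38% with the block). Of 19 measured targets and partners of YAP-TEAD and SRF, 5 rose and 0 fell with BMP (11 and 2 with the block), and 0 were called with CNTF by limma on group means (2 and 0 with the block). At its unadjusted threshold of 0.05, 10 were higher and 2 lower with BMP, and 4 were higher and 0 lower with CNTF. Shares over all probe sets at the unadjusted threshold were not computed, for this list or for the TGF-beta list below. The shares given above are at adjusted p and are not the background of these counts. The 2 falls with BMP in the block fit were Amotl2 (-0.74, limma adjusted p = 9.54e-05) and F3 (-0.76, limma adjusted p = 0.00479). Both were lower in 6 of 6 pairs, and both were picked for naming with their values known. Ajuba, a LIM-domain adaptor, rose by 1.65 ± 0.35 (limma adjusted p = 0.00726) and Vcl, the focal adhesion protein vinculin, by 0.52 ± 0.12 (limma adjusted p = 0.0111). Tead1, the DNA-binding partner of YAP, rose by 0.65 ± 0.13 (limma adjusted p = 0.00621), a call not made without number 2 (0.57, limma adjusted p = 0.0591). Flna, the actin crosslinker filamin A, rose by 1.11 ± 0.26 (limma adjusted p = 0.0139), and was not called without number 1, 2 or 3 (0.86 without number 2, limma adjusted p = 0.112). Against CNTF, BMP had lower F3, the coagulation starter tissue factor (-1.11 ± 0.25, limma adjusted p = 0.00987), and higher Tead1 (0.57 ± 0.13, limma adjusted p = 0.0137). F3 was not called without number 6 (-1.04, limma adjusted p = 0.0543), nor Tead1 without number 1 or 2 (0.51 each). Of 16 measured genes of the TGF-beta pathway, 3 rose and 1 fell with BMP (6 and 2 with the block) and 0 were called with CNTF by limma (1 and 1 with the block, and 1 and 1 at the unadjusted threshold). Ltbp1, which tethers latent TGF-beta to the matrix, rose by 1.51 ± 0.34 (limma adjusted p = 0.0111), and was not called without number 1 (1.22, limma adjusted p = 0.0656) or number 2 (1.38, limma adjusted p = 0.0591). Bambi, a pseudoreceptor that dampens BMP and TGF-beta signalling, rose by 1.502 ± 0.35 (limma adjusted p = 0.0139), and was not called without number 1, 2 or 6 (1.28 without number 2, limma adjusted p = 0.083). The ligand gene Tgfb2 rose by 0.49 ± 0.14 (limma adjusted p = 0.0415) and Skil, a SMAD co-repressor, fell by 0.65 (-0.65 ± 0.18, limma adjusted p = 0.0327). The Tgfb2 call was lost in 20 and the Skil call in 13 of the alternatives run. Set against CNTF, BMP had 4 of the 16 higher and 1 lower (6 and 2 with the block). Over all probe sets 3.24% were higher and 2.99% lower there (8.17% and 6.93% with the block). Tgfb1, another ligand gene, was higher by 1.25 ± 0.29 (limma adjusted p = 0.0117), Tgfb2 by 0.60 ± 0.14 (limma adjusted p = 0.0119) and Bambi by 1.5005 ± 0.35 (limma adjusted p = 0.0131). The receptor gene Tgfbr1 was lower (-0.33 ± 0.08, limma adjusted p = 0.0193). In that comparison the calls of Tgfb1, Tgfb2, Bambi and Tgfbr1 were lost in 1, 2, 3 and 3 of the alternatives run, each of which left out arrays.

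The genes whose levels ran most like those of the called genes over the 18 arrays were found among 8925 named genes with a mean at or above the table median. The arrays share groups and numbers, so Pearson's r is a description only. For Sparc they were Tmem192 (r = 0.92), Nrp1 (0.90) and Postn (0.89), and for Postn they were Npy (0.92), Gpx8 (0.90) and Col1a2 (0.90). For Ccn2 they were Ccdc80 (0.92), Steap2 (0.91) and Fads3 (0.90). For Fn1 they were Anxa2 (0.92), Matn2 (0.91) and Pgs1 (0.90), and for Mgp they were Chst2 (0.87), Fn1 (0.86) and Lamp1 (0.85).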

How the data were processed

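The table holds intensity values that the authors deposited for 31099 probe sets on 18 single-channel arrays, linear and between 0.404 and 162940. How probe sets were summarised and scaled is not given in the sources used here. With 2% trimmed from both ends, array means lay between 2500.7 and 2500.8. Array medians were 666.5 to 817.2. The 75th percentiles ranged over 0.0671 on the log2 scale, under the 0.3 above which quantile normalization would have been used, and the deposited scaling was kept. No counts or depths exist, and the number of arrays limits the precision.

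The constant 116.655 was added before log2, and 57 Affymetrix control probe sets were left out. Names came from the platform annotation, matched by gene ID to RefSeq (GRCr8), which changed 0 symbols. Of the tested probe sets 20826 had 1 symbol, 436 several and 9780 none. Where a gene had several probe sets, the one with the highest mean stands for it.

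Limma 3.58.1 in R 4.3.3 was fitted to all 31042 probe sets of all 18 arrays together (group means, eBayes with intensity trend, two-sided tests, Benjamini-Hochberg over all probe sets). The fit of group means was also run on simulated data with independent noise on each array, without the shared deviations of same-numbered arrays. The fit with the block was not simulated. Alternatives were quantile and median scaling, other constants, leaving out dim probe sets, the title number as a block, only the 2 groups compared, no trend, robust variance, the mean of a gene's probe sets, and leaving out each array or number.

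Deviations from the group means of same-numbered arrays correlated in all 18 pairs (r from 0.121 to 0.491), so the numbers were taken to pair the arrays. Arrays of different numbers were not compared, so pairing was not told apart from a coarser grouping of the numbers. The members, gene lists and tests were chosen with earlier results of these data known. From each matrix, receptor, pathway and fibroblast list, up to 4 called genes with the smallest adjusted p per comparison were named, with exceptions said where they occur. Other marker lists are given by counts and sums. A planned search of protein sequences was not run, and promoters came from RefSeq.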

Additional observations from a re-analysis of the deposited data

Results flagged for a closer look

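In 27 sets of 6 levels, 9 genes by 3 groups, 2 had an array far from the other 5 by Dixon's limit for the gap over the range (0.758 for Mgp and 0.67 for Ccn1). Chance alone gives about 1 in 20. Mgp stood at 13.10 on BMP array 2, where the nearest of the other BMP arrays was at 10.43. Ccn1 stood at 11.98 on the same array, where the nearest was at 8.95. Without BMP array 2 the BMP difference from control was 1.44 for Mgp and 0.27 for Ccn1, beside 1.97 and 0.88 with it, and neither was called with or without it on group means. BMP array 2 was the highest BMP array for 6 of the 9 genes (Sparc, Fn1, Mgp, Ccn1, Ccn2 and Thbs2). Control array 5 was likewise the highest control array for 6 of the 9, and the share over all probe sets was not computed. BMP array 2 also had the highest summed fibroblast and smooth muscle markers, 91639, against 11259 on control array 2. The part of those cells in these values was not tested.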

How the results depend on the processing

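The 4 rises called with BMP and the 2 called with CNTF kept their direction under every alternative run. With the number as a block, calls over all probe sets were 5176 for BMP against control, 2349 for CNTF against control and 4686 for BMP against CNTF, beside 1865, 721 and 1934 on group means. Calls among the 9 genes went to 4 for CNTF against control with the block, and among the 9 genes the block changed no call other than those of Sparcl1, Mgp and Tnc. Leaving out 1 array or 1 number gave 740 to 2097 calls for BMP against control, 366 to 795 for CNTF against control and 1111 to 1985 for BMP against CNTF. The BMP count was 740 and 1008 without numbers 2 and 3. The CNTF count was 389, 420, 366 and 406 without numbers 2, 3, 5 and 6. BMP against CNTF gave 1111, 1214 and 1190 without numbers 2, 3 and 5, and the cause was not tested. Among the 9 genes these settings gave 3 to 5 calls for BMP, 1 to 3 for CNTF and 2 to 3 for BMP against CNTF. Differences that changed sign were uncalled ones. Thbs2 in BMP against CNTF was 0.04, and -0.0205 with quantile normalization, -0.0107 with median scaling and -0.00178 with 4 times the constant. With arrays or numbers left out it ranged from -0.25 to 0.23, Postn in CNTF against control from -0.15 to 0.35 and Ccn1 in BMP against CNTF from -0.21 to 0.72. Leaving out dim probe sets kept 16355 probe sets and 7 of the 9 genes. The 37 called differences of genes in the further lists were run through the same alternatives after the data had been seen, and 0 reversed, while 16 lost the call at least once.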
